A study of Saccharomyces cerevisiae with 8 samples.

Results

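Accessible chromatin near the chromosome ends of Saccharomyces cerevisiae was described from ATAC-seq peak lists. ATAC-seq uses the Tn5 transposase to cut and tag open DNA. The regions are the sub-peaks whose summit lies within 25 kb of either end of the 15 nuclear chromosomes other than IV. The members were chosen by position alone, with sacCer3 chromosome lengths. Of 27173 sub-peaks in the 4 lists together, 1199 were subtelomeric by this rule and 22257 lay in the interior of the same 15 chromosomes. The member nearest the limit on the inside had its summit 24.98 kb from the right end of chromosome IX, with a height of 2.83 to 3.15 times the genome-wide background of its list. The nearest outside it was 25.01 kb from the left end of XI, with 3.59 to 4.07.

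The study used haploid MATa yeast of the S288c background. In one strain lox sites stand on both sides of the chromosome IV centromere, so that Cre recombinase can cut it out. That strain is named cen4- at 180 min, when beta-estradiol at 1 µM had been present, and CEN4* at 0 min, before any was added. The control strain, CEN4, has no lox sites at that centromere and was sampled at 180 min with 1 µM beta-estradiol and at 0 min without it. Each of the 4 groups has 2 samples. There are 4 deposited lists, and their names carry a strain code, 8 or 11, and a time, 180 or 0 min. No label ties either code to CEN4 or CEN4*, and the codes are used as names here. Beta-estradiol and elapsed time changed together, and their effects cannot be told apart. With 1 list per code and time there were no replicates and no test between conditions. Intervals are 95% exact binomial (Clopper-Pearson) for shares, exact Poisson for densities and order-statistic for medians, and they cover counting error only.

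Yeast subtelomeres consist of the telomeric repeats, an X element at every end and, at some ends, 1 or more Y' elements, which carry the YRF1 helicase genes. Genes near the ends can be silenced by the Sir proteins, which spread from telomeres and from the silent mating cassettes HML and HMR, and by other chromatin factors. The zone between the X element and the unique chromosome arm holds multigene families, many of them for sugar, vitamin or metal use or for the cell surface. Copies of such families resemble each other, as do Y' elements, and HML and HMR resemble the MAT locus. The sources used here do not say how reads with several matches were treated, and the part of this in the results below was not tested.

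Height is given as relative pileup, the number of fragments piled up at a summit divided by the genome-wide background of its list. That background was 439.2 at 180 min against 413.8 at 0 min in code 8, and 512.2 at 180 min against 601.7 at 0 min in code 11. The lists thus differed in depth, and a deeper list can call weaker peaks. Code 8 had 289 subtelomeric sub-peaks of 6588 at 180 min and 306 of 6838 at 0 min. Code 11 had 283 of 6654 at 180 min and 321 of 7093 at 0 min. The number was lower at 180 min in both codes, as was the number of all sub-peaks.

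The subtelomeric pattern recurred from list to list. Summits within 50 bp of each other in different lists were joined, which left 352 positions. Of these, 256 were present in all 4 lists, 21 in 3, 37 in 2 and 38 in 1. The positions in all 4 lists had a median relative pileup of 2.97, and those in 1 list had 1.48. Among the 256, the highest list exceeded the lowest by a median of 1.13-fold, 203 differed by under 1.2-fold, and 1 differed by at least 1.5-fold.

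Summits were sparser near the ends than in the interior, apart from the outermost kilobase. The subtelomeric density in code 8 was 0.385 summits per kb at 180 min against 0.408 at 0 min. The interior of code 8 had 0.537 at 180 min against 0.576 at 0 min. In code 11 the subtelomeric density was 0.377 at 180 min against 0.428 at 0 min, and the interior had 0.562 at 180 min against 0.598 at 0 min. Called regions covered 11.1% to 12.4% of the subtelomeric sequence and 16.8% to 18.2% of the interior. Annotated protein-coding starts were also sparser, at 0.389 per kb within 25 kb of an end and 0.505 per kb in the interior.

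The profile with distance had 3 zones. The splits at 1 kb and 5 kb were made after the lists were seen. Within 1 kb of an end there were 40 or 41 summits per list over 30 ends, or 1.33 to 1.37 per kb. Between 1 and 5 kb there were 8 at 180 min against 10 at 0 min in code 8, and 9 at 180 min against 10 at 0 min in code 11. This is 0.067 to 0.083 per kb, and the highest upper bound of the 4 intervals was 0.153 per kb, below the interior densities. Densities between 5 and 20 kb lay between 0.293 and 0.473 per kb. From 20 to 25 kb they were near the interior level, at 0.547 to 0.587 per kb. The density of protein-coding starts was 0.2 per kb in the outermost kilobase, 0.267 at 1 to 5 kb, 0.467 at 5 to 10 kb and 0.453 at 20 to 25 kb.

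**Figure D1:**
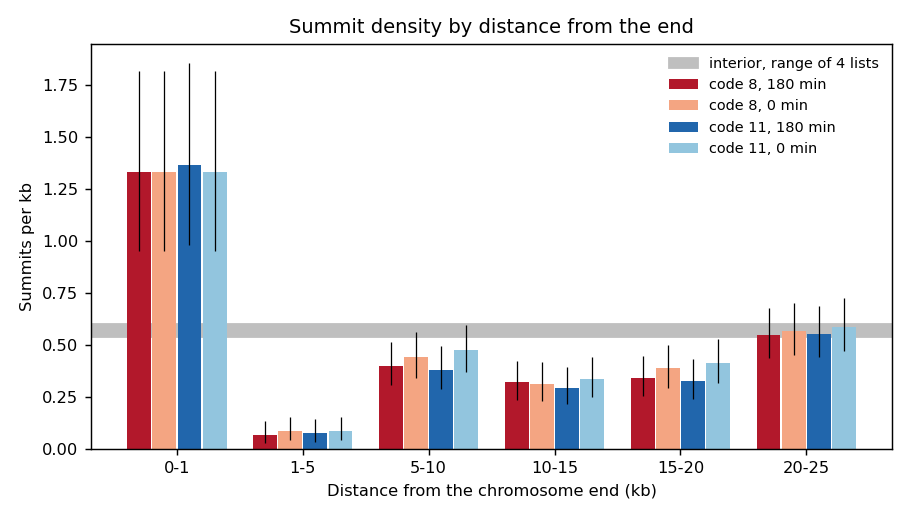
Summits per kb (y axis) by distance from the chromosome end in kb (x axis) in each of the 4 lists, with exact Poisson 95% intervals and the range of interior densities as a grey band. The outermost kilobase stands at 1.33 to 1.37 summits per kb, the next 4 kb at 0.067 to 0.083, and the bins at 20 to 25 kb lie near the interior band.

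The outermost summits were tall. Their median relative pileup within 1 kb was 6.03 at 180 min against 6.60 at 0 min in code 8, and 7.14 at 180 min against 6.49 at 0 min in code 11. The median of all subtelomeric summits was 2.68 at 180 min against 2.76 at 0 min in code 8, and 2.71 at 180 min against 2.73 at 0 min in code 11. A summit within 1 kb was present in all 4 lists at 17 of the 30 ends, and in none at 12. At those 12 the outermost summit of any list lay 4.22 to 21.8 kb from the end. The last end, the right end of VIII, had a summit 145 bp from the end in code 11 only, reaching 2.52 at 180 min against 2.54 at 0 min. Neither code 8 list called a region there, although the region's −log10 q in code 11 was 181 at 180 min against 218 at 0 min. A further 3 low terminal summits were present in both lists of 1 code and absent from both of the other. They lay 357 bp from the right end of VI (1.99 at 180 min against 2.13 at 0 min) and 808 bp from the right end of XIII (2.01 at 180 min against 1.98 at 0 min) in code 8, and 165 bp from the left end of III (2.01 at 180 min against 2.11 at 0 min) in code 11.

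At 12 ends the terminal signal was a pair of tall summits. Pairs were defined after the lists were seen, as neighbouring summits 250 to 400 bp apart, present in all 4 lists, each with a mean relative pileup of at least 4. In these 12 the outer summit lay 96 to 496 bp from the end, and the spacing was 254 to 388 bp with a median of 315 bp. At the left end of I the summits lay 178 and 492 bp from the end. The outer one had relative pileups of 9.40 at 180 min against 9.59 at 0 min in code 8, and 10.3 at 180 min against 9.67 at 0 min in code 11. At the right end of IX, where they lay 197 and 521 bp from the end, the outer summit had 11.3 at both times in code 8, and 11.7 at 180 min against 10.7 at 0 min in code 11. At the left end of XV the region began at the first base of the chromosome, and the outer summit had 10.1 at 180 min against 10.5 at 0 min in code 8, and 12.1 at 180 min against 11.1 at 0 min in code 11. The outer summit was the taller in 10 of the 12 pairs.

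A further, low summit followed most pairs on the inner side. It lay within 400 bp of the inner summit in 10 of the 12 terminal pairs, and in 9 of them in all 4 lists. Its distance from the inner summit was 218 to 293 bp with a median of 252.5 bp, and its mean relative pileup was 1.75 to 2.97. At the left end of I it had 2.06 at 180 min against 2.22 at 0 min in code 8, and 2.05 at 180 min against 2.32 at 0 min in code 11. Over the 10, its mean height was 15.5% to 35.1% of that of the taller summit of its pair, with a median of 24.0%.

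The same form was found farther in at 8 ends without a terminal pair. Their outer summits lay 4.911 to 13.223 kb from the end, the spacing was 289 to 372 bp with a median of 323 bp, and 6 had such a low summit within 400 bp of the inner one. No pair of this kind had its outer summit between 15 and 25 kb. The tallest subtelomeric summit of all belonged to one of these, 4.911 kb from the left end of VI in the region chrVI:4436-5568. It had 11.7 at 180 min against 12.3 at 0 min in code 8, and 13.3 at 180 min against 12.1 at 0 min in code 11. Pairs of this form were not confined to the ends: counted in each list on its own, they numbered 2.53 to 2.80 per 100 kb within 25 kb of an end and 1.83 to 2.10 per 100 kb in the interior. The subtelomeric rate includes pairs at the very end. These were 11 of 19 at each time in code 8. In code 11 they were 12 of 20 at 180 min against 11 of 21 at 0 min. A rate without them was not computed.

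Ends with a gene named YRF1 lacked terminal summits, and so did some ends without a gene of that name. Of the 12 ends without a summit within 1 kb in any list, II right, V left, VI left, X left, XIII left and XVI right have no YRF1 gene. Ends were sorted by gene name alone. Which ends carry Y' elements was not determined, so the ends just named are not shown to lack them. The gene table places 7 YRF1 genes within 25 kb of an end, at 6 ends. No list had a summit within 1 kb of any of these 6 ends. None of the 4 lists had a summit in the 37.161 kb of the 7 gene bodies. A count of 0 does not show absence: a fixed floor of 3 summits per list was set for it, not an exact Poisson interval. At 4 of them the tall pair stood inward of the YRF1 genes. On the right arm of V it lay 6.679 and 6.968 kb from the end, on the right arm of VII 6.688 and 6.998 kb, and on the left arm of XIV 6.808 and 7.108 kb. On the right arm of XII, where the table gives a pair of genes, YRF1-4 and YRF1-5, it lay 13.223 and 13.591 kb from the end. On the right arm of VII the outer summit had 10.7 at 180 min against 10.6 at 0 min in code 8, and 11.8 at 180 min against 10.9 at 0 min in code 11. The ends of XV right and XVI left, each with 1 YRF1 gene, had no pair, and their first summits lay at 14.7 kb and 14.5 kb.

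**Figure D2:**
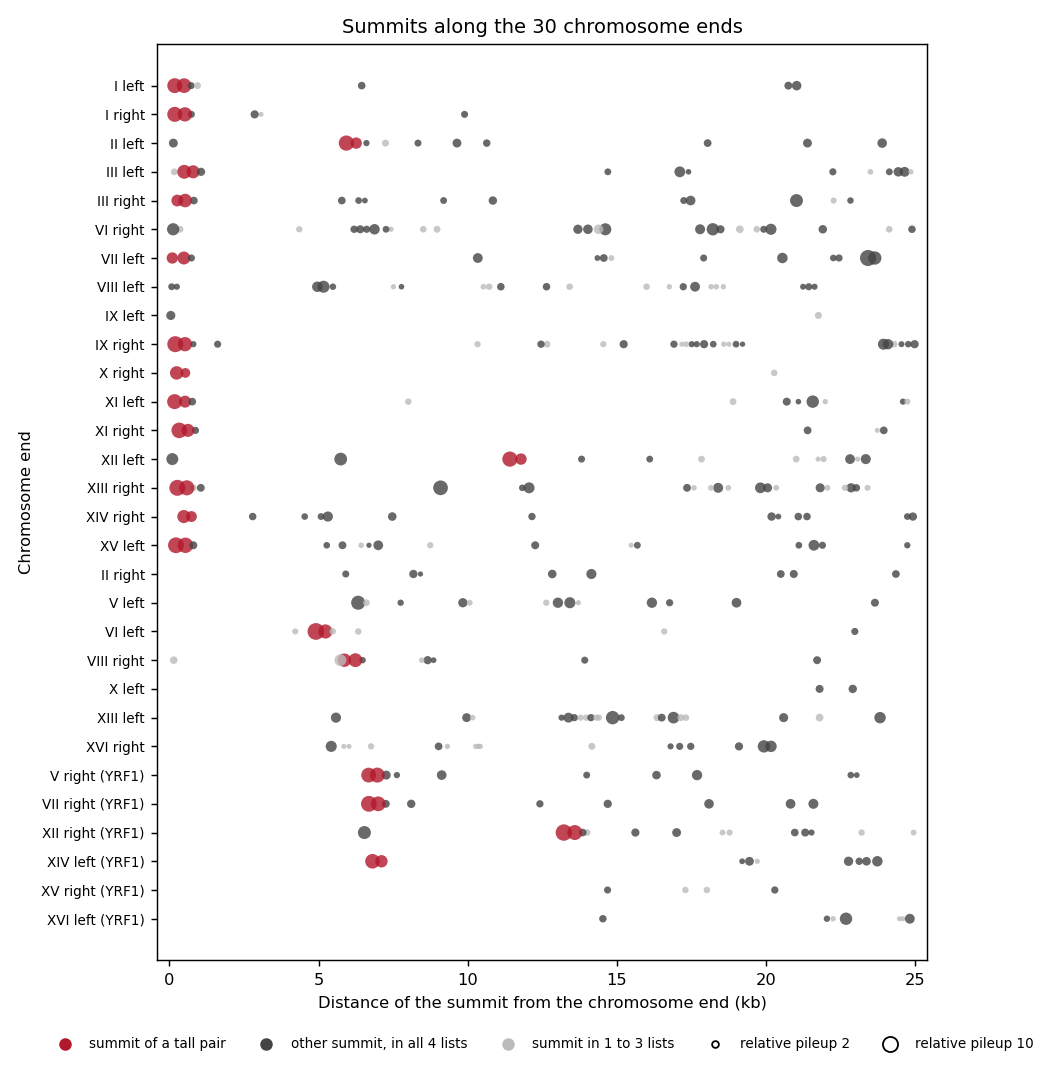
Position of every subtelomeric summit as distance from its chromosome end in kb (x axis) at the 30 ends (y axis, with the 6 YRF1 ends at the bottom). Point area grows with mean relative pileup, red marks the 20 tall pairs, dark grey other summits in all 4 lists and light grey those in 1 to 3 lists. The red pairs lie within 1 kb at 12 ends and 4.911 to 13.591 kb inward at 8.

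Most subtelomeric summits lay outside the promoter windows of the main setting. The promoter window of a gene spanned the 400 bp before its annotated start and the 100 bp after it. In code 8, 41.9% of subtelomeric summits lay in one at 180 min against 39.2% at 0 min. In the interior of code 8 these were 67.4% at 180 min against 65.8% at 0 min. In code 11 the subtelomeric shares were 40.6% at 180 min against 39.3% at 0 min, and the interior ones 66.0% at 180 min against 64.9% at 0 min. Summits outside both promoter windows and gene bodies made up 48.8% to 50.0% near the ends and 13.0% to 13.2% in the interior. The terminal summits did not account for all of this share, since it was 42.6% to 44.8% beyond the first kb. Gene bodies held 9.34% to 10.9% of subtelomeric and 19.4% to 22.1% of interior summits. A window that starts 1000 bp upstream raised the promoter share near the ends to 67% to 69.9%. The interior share with that window was not computed, so this range cannot be set beside the interior shares above.

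The same held gene by gene. Of 292 protein-coding genes that start within 25 kb of an end, code 8 had a promoter summit at 38.4% (32.8% to 44.2%) at 180 min against 37.3% (31.8% to 43.2%) at 0 min. Code 11 had one at 34.9% (29.5% to 40.7%) at 180 min against 38.7% (33.1% to 44.5%) at 0 min. The shares over 4944 interior genes were 64.8% at 180 min against 65.7% at 0 min in code 8, and 65.4% at 180 min against 66.7% at 0 min in code 11. Promoter summits in all 4 lists were found for 100 of the subtelomeric genes, and in none for 173. The share climbed with distance, standing at 15.8% to 18.4% of 38 genes within 5 kb, 27.3% to 30.3% of 66 genes at 10 to 15 kb, and 60.3% to 66.2% of 68 genes at 20 to 25 kb.

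**Figure D3:**
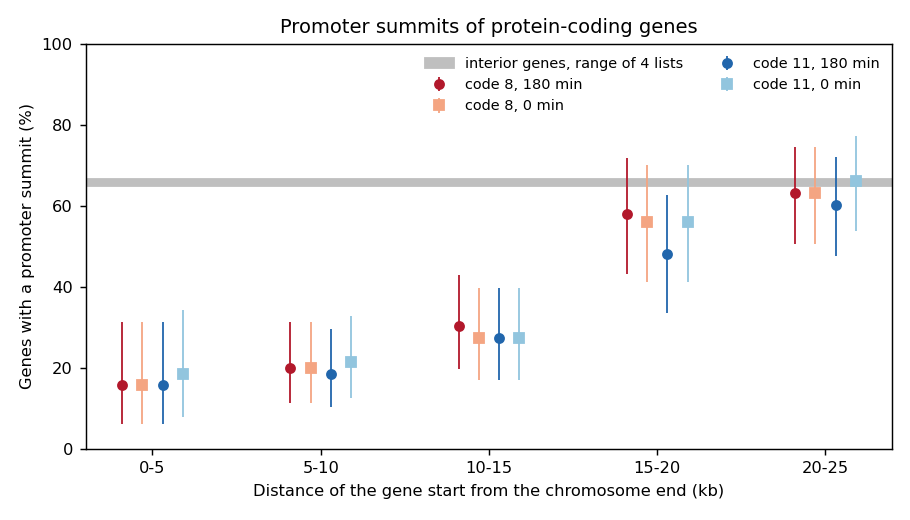
Percent of protein-coding genes with a promoter summit (y axis) by distance of the gene start from the chromosome end in kb (x axis) in each of the 4 lists, with Clopper-Pearson 95% intervals and the range of interior shares as a grey band. The shares stand at 15.8% to 18.4% in the outermost 5 kb and at 60.3% to 66.2% at 20 to 25 kb, where all 4 intervals include the interior band of 64.8% to 66.7%.

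Members of 5 duplicated families, pooled after the lists were seen, had promoter summits in a smaller share than the other genes, with intervals that overlapped slightly. The seripauperins, COS genes, YRF1 helicases, thiamine and pyridoxine genes and aryl-alcohol dehydrogenases together have 46 protein-coding members here. Of these, 8 (17.4%, 7.82% to 31.4%) had one in every list and 37 in no list. Of the other 246 genes, 92 (37.4%, 31.3% to 43.8%) had one in all 4 lists. The families were unlike each other: the seripauperins had 6 of 18, near the 34.2% over all 292 genes, and 3 of the families had none. The sugar genes, which also include near-identical copies, were not in this group. Family members were taken by gene name, so any copies without such a name count among the other genes. From 10 kb inward the counts were 4 of 16 family members and 77 of 168 other genes, and the intervals overlapped (7.27% to 52.4% for family members, 38.1% to 53.7% for the others).

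The seripauperins are cell wall proteins of the PAU family, known for expression in low oxygen. Of 18 subtelomeric members, 6 had a promoter summit in every list and 12 in none. PAU4 was the highest, with relative pileups of 2.55 at 180 min against 3.49 at 0 min in code 8, and 2.59 at 180 min against 3.20 at 0 min in code 11. PAU20 had 2.82 at 180 min against 3.0 at 0 min in code 8, and 2.55 at 180 min against 2.84 at 0 min in code 11. PAU13, PAU6, PAU18 and PAU3 had lower means, down to 2.05. The median log2 change, 180 over 0 min, over the 6 was −0.17 in each code, against a median over matched summits of the 15 chromosomes of −0.05 in code 8 and 0.03 in code 11. PAU3 and PAU13 each had a change of about 0 or above in 1 code.

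The COS genes code for membrane proteins that act in the sorting of other membrane proteins to the vacuole. Of 10 members, COS6 and COS10 had a promoter summit in all 4 lists. COS6 had 2.78 at 180 min against 3.53 at 0 min in code 8, and 2.80 at 180 min against 3.23 at 0 min in code 11. COS4 had one in code 11 at 0 min only, and 7 members had none. No promoter summit was called in any list for the 7 YRF1 genes, for FLO10, a flocculin that makes cells adhere, for the 7 thiamine and pyridoxine genes or for the 5 aryl-alcohol dehydrogenase genes. The 24 names of the seripauperin list include 6 that lie outside the 25 kb or on chromosome IV. No gene of the biotin list lies within 25 kb, and 3 names of the lists, AAD16, BIO1 and IMD1, are missing from the gene table.

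Sugar genes had 6 of 16 members with a promoter summit in every list, near the 34.2% over all subtelomeric genes, and 5 of the 6 were MAL genes. IMA1, an isomaltase, had 4.31 at 180 min against 4.13 at 0 min in code 8, and 4.72 at 180 min against 4.43 at 0 min in code 11. MAL13, a maltose activator gene, had 4.05 at 180 min against 4.16 at 0 min in code 8, and 4.17 at 180 min against 4.18 at 0 min in code 11. MAL33, a second activator gene, and the maltase genes MAL32 and MAL12 had mean relative pileups near 3, while the permease gene MAL31 was lowest at 1.21. Among siderophore transporters, which take up iron bound to microbial chelators, ENB1 had 4.49 at 180 min against 5.40 at 0 min in code 8, and 5.26 at 180 min against 5.21 at 0 min in code 11. ARN1 had 1.73 at 180 min against 1.40 at 0 min in code 8, and 1.55 at 180 min against 1.47 at 0 min in code 11. ARN2 had a promoter summit at 180 min only, of 1.39 in code 8 and 1.52 in code 11, low in both. Taller summits lay just outside the 400 bp window. Code 11 had one of 1.72 at 0 min, 509 bp from ARN2, and code 8 one of 1.81 at 180 min, 505 bp from it. ARR1, the transcription factor of arsenic resistance, was the 1 gene of 4 on the arsenic and drug export list with a summit in every list.

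The silent cassettes had weak signal. HMRA1 and HMRA2 share 1 summit in their promoter windows, with 1.69 at 180 min against 2.11 at 0 min in code 8, and 1.75 at 180 min against 1.87 at 0 min in code 11. A further region, with its summit 30 bp past the end of HMRA1, was called in code 8 at 0 min, with 1.68. No region overlapped it in code 8 at 180 min or in code 11 at 0 min. Neither HML gene had a promoter summit. The summit nearest HML lay 890 bp beyond HMLALPHA1, with 2.32 at 180 min against 2.09 at 0 min in code 8, and 1.78 at 180 min against 2.06 at 0 min in code 11. By contrast, a summit 41 bp from the tRNA gene YNCC0014W, 21.0 kb from the right end of III, had 7.38 at both times in code 8, and 7.22 at 180 min against 7.33 at 0 min in code 11. A tRNA gene beside HMR is known as a barrier to the spread of silencing. The tRNA summit was the taller in all 4 lists.

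**Figure D4:**
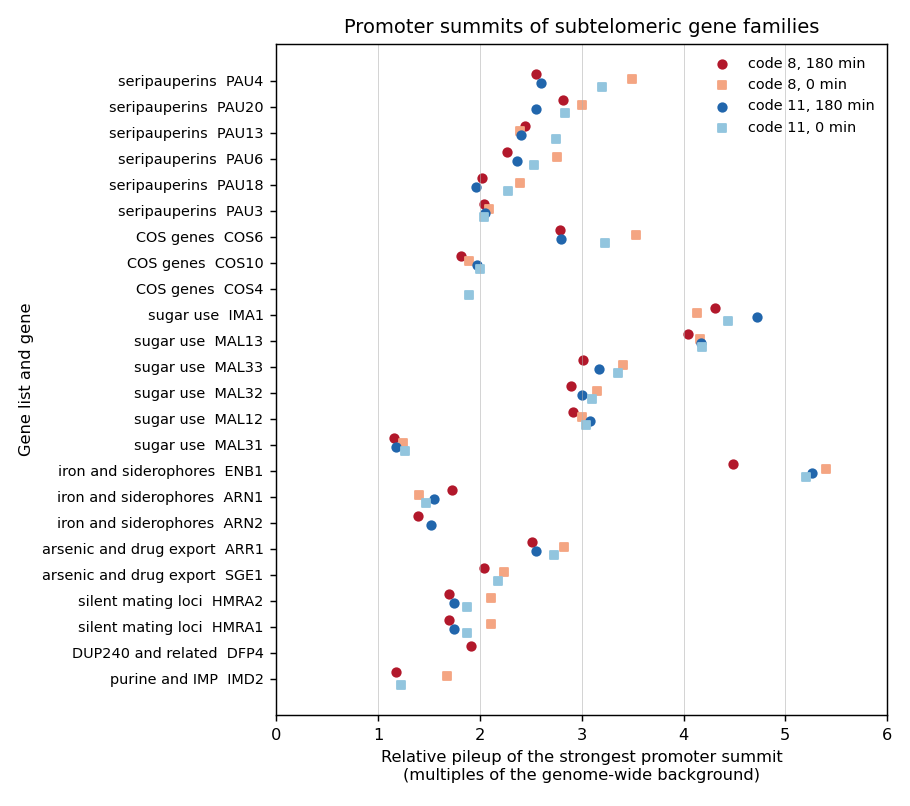
Relative pileup of the strongest promoter summit in multiples of the genome-wide background (x axis) for members of the gene lists with a promoter summit in at least 1 list (y axis), with 1 point per list. Seripauperins lie between about 2 and 3.5, IMA1, MAL13 and ENB1 above 4, and points of 0 min lie to the right of those of 180 min for PAU4 and COS6 in both codes.

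No subtelomeric summit was as tall as the tallest interior ones. The highest subtelomeric relative pileup was 11.7 at 180 min against 12.3 at 0 min in code 8, and 13.3 at 180 min against 12.1 at 0 min in code 11. The highest in the interior was 81.1 at 180 min against 93.2 at 0 min in code 8, and 77.3 at 180 min against 74.6 at 0 min in code 11. The subtelomeric medians given above were lower in each list, with intervals that overlapped the interior ones. The interior medians were 2.98 at 180 min against 2.94 at 0 min in code 8, and 3.02 at 180 min against 2.84 at 0 min in code 11. Relative pileups of at least 8 made up 9.69% of subtelomeric summits at 180 min against 9.48% at 0 min in code 8, and 12.4% at 180 min against 9.03% at 0 min in code 11. The interior shares were 6.94% at 180 min against 6.70% at 0 min in code 8, and 8.36% at 180 min against 6.35% at 0 min in code 11. The intervals of these shares overlapped in each list. Of such subtelomeric summits in code 8, 13 lay within 1 kb of an end at each time, of 28 at 180 min against 29 at 0 min. Of the 10 tallest positions, 9 were members of tall pairs. The exception lay between FZF1, a gene for a regulator of sulphite export, and HXK2, 23.4 kb from the left end of VII. Its summit stood 220 bp past the end of FZF1, and its called region also held the promoter summit of HXK2. The exception had 10.7 at 180 min against 11.6 at 0 min in code 8, and 12.5 at 180 min against 10.8 at 0 min in code 11.

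Between 180 and 0 min, few subtelomeric regions appeared or disappeared from the lists. A region was counted as lost when no region of the 180 min list of its code overlapped it by at least 1 bp, and as gained in the reverse case. In code 8, 13 of 176 regions were lost (7.39%, 3.99% to 12.3%), against 5.00% in the interior and 4.61% of all regions. In code 11, 21 of 187 were lost (11.2%, 7.09% to 16.7%), against 5.10% in the interior and 5.27% of all. In code 8, 12 of 177 were gained (6.78%, 3.55% to 11.5%), against 2.76% in the interior and 3.98% of all. In code 11, 1 of 169 was gained (0.592%, 0.0150% to 3.25%), against 2.39% in the interior and 2.29% of all. With a reciprocal overlap of 50% in place of 1 bp, the lost shares were 10.8% in code 8 and 12.8% in code 11, and the gained shares 11.3% in code 8 and 3.55% in code 11. The subtelomeric and interior intervals did not overlap for losses in code 11 and gains in code 8, and overlapped for the rest. The code 11 list at 180 min had the lower genome-wide background of its pair, 512.2 against 601.7 at 0 min, and the part of depth in its calls was not tested.

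The regions that changed call were weak and narrow. In code 8, lost regions had a median relative pileup of 1.84 and a median width of 190 bp, against 3.49 and 391 bp for those kept. In code 11 they had 1.80 and 169 bp, against 3.29 and 399.5 bp. Lost in both codes were 7 of the 176 regions of code 8 (3.98%, 1.61% to 8.02%), against 1.36% in the interior and 1.36% of all. Gained in both were 0 of 177 (up to 2.06%), against 0.518% in the interior and 0.612% of all. The highest of the 7 by −log10 q, chrII:7170-7324, lay 361 bp from PAU9 and had relative pileups at 0 min of 2.23 in code 8 and 2.09 in code 11. The others were chrXI:7920-8095 near MCH2, a gene of the monocarboxylate transporter family, chrXII:21692-22016 in the promoter of GTT2, which codes for a glutathione transferase, and chrXII:1059322-1059775 near YLR460C. To these are added chrXV:8660-8853 near the sulphatase gene BDS1, chrXVI:937631-938111 near ARR1, and chrXVI:941223-941409 near the arsenite exporter gene ARR3. Their relative pileups at 0 min were 1.27 to 1.91. Apart from the GTT2 region, each of the 7 had its summit beyond the end of the named gene, away from its start.

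Of regions that changed call in 1 code only, ranked by −log10 q, the first lost in code 8 was chrXV:1073185-1073374 in the promoter of FDH1, a formate dehydrogenase gene, with 1.87 at 0 min. The first gained in code 8 by the same ranking were chrXI:18805-18987 near SRY1, a serine racemase gene, with 2.14 at 180 min, and chrVI:261559-261736 near YFR054C, with 1.93. In code 11 the first lost were chrXVI:933825-933984, in the promoter of SGE1, a drug exporter gene, with 2.18 at 0 min, and chrXII:17737-17928, shared by MMP1 and MHT1, which serve S-methylmethionine use, with 2.02. By relative pileup the tallest lost in code 8 were chrXIII:21706-21869 in the promoter of PGA3, with 2.62 at 0 min, and chrVI:250940-251137 in the body of RET2, a coatomer gene, with 2.53.

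Heights of matched summits changed little. Matched summits lay within 50 bp of each other in the lists of 1 code, 267 subtelomeric ones in code 8 and 272 in code 11. Their median log2 change, 180 over 0 min, was −0.08 (SD 0.14) in code 8 and 0.01 (SD 0.14) in code 11. The interior medians were −0.04 in code 8 and 0.04 in code 11. The subtelomeric median was therefore 0.04 below the interior in code 8 (difference −0.04, −0.05 to −0.02) and 0.03 below it in code 11 (difference −0.03, −0.06 to −0.01). Within 10 kb of an end the differences were −0.02 in code 8 and −0.01 in code 11. The intervals of the differences are those of the subtelomeric median, with the interior median taken as fixed. They treat summits as independent, although summits of 1 region are not. Among the 25 ends with at least 5 matched summits, the median lay below that of the same chromosome's interior at 16 in code 8 and 18 in code 11, and at 10 of the 25 in both. Within 1 kb of an end the median difference from the interior was 0.00 in code 8 and 0.01 in code 11.

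Among larger changes, more summits were lower than higher at 180 min. A log2 change was called when it differed by at least 0.3, or 1.23-fold, from the median of the 15 chromosomes. In code 8, 10 of 267 summits (3.75%) were lower at 180 min, against 1.41% in the interior and 1.32% of all matched summits, and 2 were higher, against 0.939% in the interior and 5.95% of all, chromosome IV included. In code 11, 12 of 272 (4.41%) were lower, against 1.48% in the interior and 1.57% of all, and 1 was higher, against 1.03% in the interior and 0.916% of all. Over the 256 positions in all 4 lists, 4 were lower in both codes (1.56%, 0.427% to 3.95%), against 0.342% of interior positions and 0.351% of all. Higher in both was 1 position (0.391%), against 0.0855% of interior positions and 0.123% of all. Across these positions the changes in code 8 and code 11 had a Pearson correlation of 0.48, and 0.37 across 4681 interior positions, as a description: points of 1 list share its depth.

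The shared changes were as follows. The largest lay on the right arm of XIV, 21.1 kb from the end and 658 bp from BSC5, with 1.84 at 180 min against 3.42 at 0 min in code 8, and 2.02 at 180 min against 2.89 at 0 min in code 11. That is a log2 change of −0.89 in code 8 and −0.52 in code 11. The promoter summit of PAU4, with the heights given above, had −0.45 in code 8 and −0.30 in code 11. The summit at SUT532, a non-coding RNA gene on the left arm of VII, had 1.89 at 180 min against 2.52 at 0 min in code 8, and 1.78 at 180 min against 2.47 at 0 min in code 11. A summit 12.5 kb from the right end of IX, 2918 bp from GTT1, had 2.13 at 180 min against 2.74 at 0 min in code 8, and 2.06 at 180 min against 2.64 at 0 min in code 11. The position higher in both was near HXK1, which codes for a hexokinase, 14.6 kb from the right end of VI. It had 7.20 at 180 min against 6.0 at 0 min in code 8, and 6.83 at 180 min against 5.40 at 0 min in code 11.

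The next largest changes were ranked among summits with a mean relative pileup of at least 2. Lower summits, some with larger changes, were left out. Among those ranked, the code 8 list at 180 min was lower at a summit near ENB1 (1.95 at 180 min, 2.53 at 0 min) and at the BSC5 promoter (2.17 at 180 min, 2.78 at 0 min). The code 11 list at 180 min was lower at the promoter of YER188W (3.57 at 180 min, 4.84 at 0 min) and at a summit 951 bp from COS6 (2.39 at 180 min, 2.97 at 0 min). No rise other than that near HXK1 passed the threshold of 0.3 in code 11. The next in size among those ranked were a summit near YNR068C (2.29 at 180 min, 1.84 at 0 min), the promoter of HSU1 (4.92 at 180 min, 4.14 at 0 min) and a summit near YHL049C (5.45 at 180 min, 4.67 at 0 min). After them came the tall summit between FZF1 and HXK2 given above. The promoter of HXK2, a hexokinase gene (8.73 at 180 min, 7.53 at 0 min), followed, in the same called region. At HXK2 the log2 change was −0.14 in code 8 and 0.21 in code 11.

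**Figure D5:**
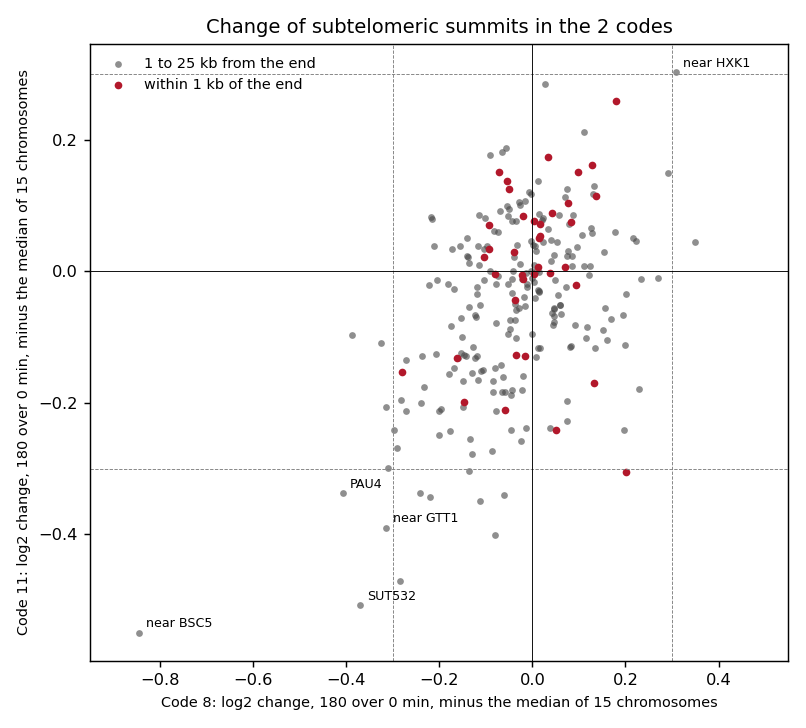
Log2 change of relative pileup, 180 over 0 min, minus the median of the 15 chromosomes, in code 8 (x axis) and code 11 (y axis) for the 256 subtelomeric positions in all 4 lists. Dashed lines mark a change of 0.3 either way, and the labelled points are the 4 positions lower and the 1 higher in both codes. Terminal summits, in red, lie around 0.

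Set beside each other at the same time, the codes differed at few subtelomeric summits. At 180 min, 4 of 264 matched summits were higher in code 8 than in code 11 by the same rule and 0 were lower, against 6.35% higher and 0.972% lower over all matched summits. In the interior these shares were 0.923% and 1.19%. At 0 min 1 of 292 was higher and 0 lower, against 0.14% and 0.296% of all. At 180 min the difference was largest at the summit beyond HMLALPHA1, with 2.32 in code 8 and 1.78 in code 11. At 180 min, 13 of 177 regions were present in code 8 only (7.34%, 3.97% to 12.2%), against 2.42% in the interior and 3.7% of all, and 4 of 169 in code 11 only (2.37%, or 7.1% with 50% reciprocal overlap), against 4.92% and 4.22%. At 0 min, 4 of 176 were in code 8 only (2.27%), against 1.87% and 1.92%, and 14 of 187 in code 11 only (7.49%), against 4.57% and 4.54%. Code 11 had the higher background at each time. The terminal region of VIII right had the highest −log10 q of the regions in code 11 only at each time.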

How the data were processed

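ATAC-seq libraries came from spheroplasts tagged with Tn5, per the labels' protocols. Tools listed by the submitters' processing notes, with no roles, are MACS2 2.2.4, HOMER, Picard, SAMtools and Bowtie2 2.3.4.3, and the build is sacCer3. The sources used here do not give shifting of reads for the Tn5 cut, treatment of reads with several matches or pooling of experiments. The authors deposited 4 peak lists, and the code and time come from their names. Each row of a deposited list has a score, a fold enrichment over local background (a linear ratio), the −log10 p-value and the −log10 q-value, all made by the authors.

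The pileup and local background of each summit were derived by solving the authors' fold and −log10 p together, on the premise that fold is a ratio of values each raised by 1 and p an upper Poisson tail. Of the recovered pileups, 99.1% to 100% were whole within 0.05. The recovery was checked on simulated data. The pileup was divided by the list's genome-wide background, the lowest local background. Rows with identical coordinates formed 1 region with its strongest sub-peak's values. Gene names and positions came from the RefSeq table of assembly R64, with strand read from systematic names.

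Read totals are not known, so the genome-wide background stands for depth. There were 0 unmapped per-sample columns. Named items are, per code, the 6 strongest lost and gained regions and the 6 largest rises and falls with a mean relative pileup of at least 2, the 10 tallest positions, changes shared by both codes, up to 6 members of each gene list, and HML and HMR; a part of them is printed. Other names were chosen after their values were seen. The members and gene lists were chosen with earlier results of these data known. No reference genome was used here, so no sequence is printed. Alternatives changed the limit of 25 kb, the overlap, the matching distance, the threshold and the windows. Software was Python 3.11.15, pandas 2.3.3, SciPy 1.17.1 and matplotlib 3.10.9.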

Additional observations from a re-analysis of the deposited data

Results flagged for a closer look

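For 5 regions the calls went opposite ways in the 2 codes. The differences were not tested, since each code has 1 list per time. The region chrIX:21682-21834, 538 bp from HXT12, which the gene table lists as a pseudogene, was gained by 180 min in code 11 and lost in code 8, with a −log10 q of 84.45 in code 8. The other 4 were gained in code 8 and lost in code 11. They were chrIII:23417-23617, in the promoter windows of ADF1 and KRR1, with a −log10 q of 21.25 in code 8, chrV:12561-12716 near RMD6, with 31.5, chrVI:16517-16676 near the amino acid permease gene AGP3, with 41.42, and chrXV:1073918-1074079 in the promoter of YOR389W, with 65.81. Relative pileups of these 5 in the list that called them lay between 1.42 and 2.33.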

How the results depend on the processing

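Of 112 alternative values, 104 kept their direction and stayed within the 95% interval of the main value (for counts, within 1.5 times), 8 moved further and 0 reversed. Shares, counts and heights are positive values, and only the differences of medians could change sign. The alternative that scaled by the median pileup of matched summits shifted subtelomeric and interior values alike. It could not move those differences. Of the 104, 5 still changed by over 1.5 times. These were the gained share in code 8 (11.3%) and the share only in code 8 at 0 min (3.41%) with 50% reciprocal overlap, the code 8 difference of medians within 10 kb (−0.0223) and with chromosome IV ends (−0.023), and the code 11 difference by fold over local background (−0.0175). With 50% reciprocal overlap, regions gained in code 11 made up 3.55% and those only in code 11 at 180 min 7.1%, and within 20 kb of an end the gained share in code 11 was 0%. The code 11 difference of medians within 10 kb was −0.00847. A promoter window from 1000 bp upstream held 69.9% at 180 min against 67% at 0 min in code 8, and 68.9% at 180 min against 68.2% at 0 min in code 11. Leaving out each chromosome in turn gave differences of medians of −0.04 (without III) to −0.03 (without XII) in code 8, and −0.04 (without VII) to −0.02 (without II) in code 11. The causes were not tested. Not run, for want of a genome sequence, were the restriction to unique sequence and the motif shares with their window. No paired analysis was possible because the lists carry no replicate number and there is 1 list per code and time. Depth limits weak calls, and repeated sequence may hold few uniquely placed reads; neither was measured here.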
